A study of Rattus norvegicus with 2 samples.

Results

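The dual-specificity MAP kinase phosphatases described here are 10 genes, Dusp1, Dusp2, Dusp4, Dusp5, Dusp6, Dusp7, Dusp8, Dusp10, Dusp14 and Dusp16, out of 32662 in a gene expression table of the rat retina. They were chosen by gene symbol, and each symbol had 1 entry in the table. The series holds 2 RNA-seq libraries made from total RNA after removal of ribosomal RNA. CTRL came from the retina of a Long-Evans Rat aged 2 months after a sham procedure. IR12 came from a Long-Evans Rat of the same age whose retina underwent ischemia-reperfusion, an interruption of the blood supply followed by its return, and was collected 12 hours after reperfusion. The way in which ischemia was produced is not given in the sources used here. With 1 library per condition, no difference has a replicate check, no test was made, and animal and injury cannot be told apart. The comparison asks which members of the family had more or less transcript in the injured retina.

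MAP kinases (ERK, JNK and p38) are switched on when an upstream kinase phosphorylates a threonine and a tyrosine in their activation loop. Dual-specificity phosphatases remove both phosphates and so switch the kinase off, and they differ in which kinase they prefer and in whether they act in the nucleus or the cytoplasm. Several of their genes are themselves transcribed in response to MAP kinase activity, which closes a negative feedback loop, and in the injured retina ERK phosphorylation is well known in Müller glia.

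Expression was given as FPKM, by definition fragments scaled to transcript length and to the mapped fragments of the library. How the libraries were scaled to each other is not given in the sources used here. Scaling to length lets levels of different genes be set side by side. Differences are log2 ratios of (FPKM + 1), IR12 over CTRL, which makes the difference of a low gene look smaller than it is. A gene was counted as higher or lower when it differed by at least 2-fold on this scale, among 13599 genes with an FPKM of at least 1 in at least 1 library. FPKM carries no read counts, but its lowest values move in steps, and if the smallest step is 1 read, an FPKM of 1 stands for 15.3 reads per 1000 bases of transcript in CTRL and 26.1 in IR12. The 95% intervals below are exact Poisson intervals for 1000 bases of transcript on this reading, which was chosen after the data were seen. This reading implies far fewer reads than the libraries are described as holding, and this gap was not resolved, so each interval and overlap below holds only if the reading is right. The intervals cover counting error only and say nothing of the spread between animals.

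Of the 10 phosphatases, 9 had an FPKM of at least 1, all 9 of them in both libraries, and Dusp2 was below it in both. Dusp5, Dusp6 and Dusp7 were at least 2-fold higher in IR12, which is 3 of 9 genes, beside 6.56% (892) of the 13599 genes. Dusp4 alone was at least 2-fold lower, which is 1 of 9, beside 6.12% (832) of all genes. The other 5 lay between these limits. The median log2 ratio over the 9 genes was 0.10, and over all 13599 genes it was 0.02, so the middle of the family lay near that of all genes. Log2 ratios of the 9 genes ranged from -1.12 (Dusp4) to 2.94 (Dusp6). Bulk tissue cannot tell fewer cells of a type from less RNA per cell. With both columns rescaled to the same sum (TPM scale), 2817 of all genes were higher and 436 lower, and the phosphatase counts became 4 and 0.

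**Figure D1:**
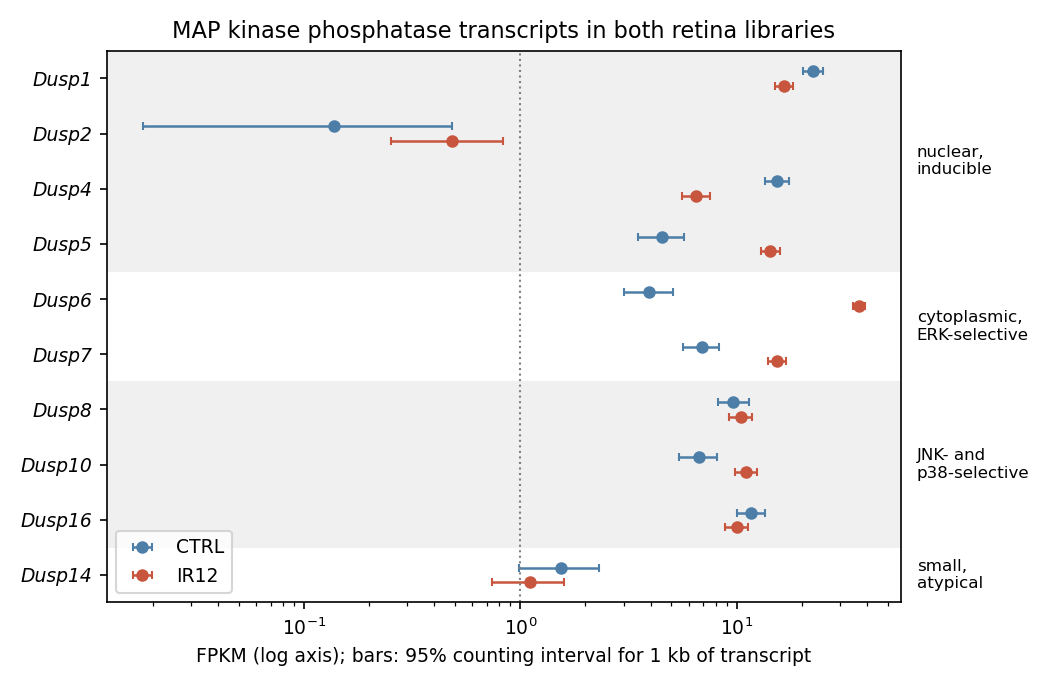
FPKM of the 10 phosphatase genes in CTRL (blue) and IR12 (red) on a log axis, grouped by role, with 95% Poisson intervals for 1000 bases of transcript as bars and FPKM 1 as a dotted line. Dusp6 lies at 3.94 in CTRL and 36.8 in IR12, and Dusp4 at 15.4 and 6.52.

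The largest gain was that of Dusp6, a cytoplasmic phosphatase that prefers ERK. Dusp6, a classic feedback inhibitor that is itself transcribed downstream of ERK, had an FPKM of 3.94 in CTRL (95% interval 3.01 to 5.07) and 36.8 in IR12 (34.5 to 39.2). Its FPKM was therefore 9.34 times as high in IR12, with a log2 ratio of 2.94, and only 115 of the 13599 genes had a higher ratio. In FPKM, Dusp6 moved from below most of the family in CTRL to above all other members in IR12. The gene (ENSRNOG00000023896) is listed at chr7:41475163-41479392 on rn6, and no other listed gene overlaps it. Dusp7, its closest relative by location and substrate, had an FPKM of 6.88 in CTRL (5.63 to 8.33) and 15.4 in IR12 (13.9 to 17.0), a log2 ratio of 1.06. Dusp7 (ENSRNOG00000010789, chr8:115069095-115076130) stood close to the 2-fold limit and was below it, at 0.96, with both columns brought to the same sum without small non-coding RNAs. Together the pair had a summed FPKM of 10.8 in CTRL against 52.2 in IR12.

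Because Dusp6 and Dusp7 were both higher in IR12, their upstream sequences are shown, as the 250 bases before the transcription start site in the RefSeq promoter table for GRCr8, 5′ to 3′ on the gene's own strand. Capitals mark matches, on either strand, to any of 7 motifs. These were the cyclic AMP response element TGACGTCA, its core TGACG (which every full element also holds), the AP-1 site TGACTCA or TGAGTCA, and the CArG box bound by serum response factor. The others were the NF-kB site (the decamer of the immunoglobulin kappa enhancer, or GGG, a purine, any base, a pair of pyrimidines and CC), the glucocorticoid receptor motif AGAACA and the TATA box TATAAA.
Dusp6, chr7:35979354-35979603 on GRCr8, plus strand: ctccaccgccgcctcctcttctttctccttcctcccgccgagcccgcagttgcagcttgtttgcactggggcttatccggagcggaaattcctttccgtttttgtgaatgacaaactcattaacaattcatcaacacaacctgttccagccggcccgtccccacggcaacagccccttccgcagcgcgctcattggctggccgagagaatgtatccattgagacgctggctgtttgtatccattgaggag
Dusp7, chr8:115887841-115888090 on GRCr8, plus strand: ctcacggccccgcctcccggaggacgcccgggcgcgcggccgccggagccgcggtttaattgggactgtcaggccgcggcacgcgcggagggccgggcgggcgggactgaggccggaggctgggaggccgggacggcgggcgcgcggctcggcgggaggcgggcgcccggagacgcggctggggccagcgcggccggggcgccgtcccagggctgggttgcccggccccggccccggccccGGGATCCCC
The Dusp6 window held no match to any of these motifs. The Dusp7 window had 1 match, an NF-kB match at its end, 9 bases to 1 base before the start site, and with 84.4% G and C it was the most GC-rich window of the family. A match is a run of letters and not a bound site.

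The nuclear phosphatases known as immediate early or inducible genes went separate ways. Dusp1, which dephosphorylates p38, JNK and ERK, had an FPKM of 22.6 in CTRL (20.3 to 25.1) and 16.6 in IR12 (15.1 to 18.3). The intervals of Dusp1 did not overlap, but its log2 ratio of -0.42 became 0.19 on the TPM scale, so its direction depends on the scaling. Dusp4, which acts on ERK and JNK in the nucleus, had an FPKM of 15.4 in CTRL (13.5 to 17.5) and 6.52 in IR12 (5.57 to 7.57). The log2 ratio of Dusp4 (ENSRNOG00000011921, chr16:61078175-61091169) was -1.12, and 670 of the 13599 genes had a lower one. On the TPM scale it was -0.53, which kept the direction and lost the 2-fold difference.

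Dusp5, the nuclear phosphatase specific for ERK, had an FPKM of 4.51 in CTRL (3.51 to 5.705) and 14.3 in IR12 (12.9 to 15.9). It was thus higher in the injured retina while Dusp4, which shares its compartment, was lower. The log2 ratio of Dusp5 (ENSRNOG00000014061, chr1:274245184-274258595) was 1.48, and it was 1.38 to 2.01 under the other scalings and the smaller pseudocount. Dusp2, best known from activated leukocytes, was the lowest member in both libraries, with an FPKM of 0.137 in CTRL (0.0179 to 0.482) and 0.481 in IR12 (0.253 to 0.831). These intervals overlap on this reading of depth.

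The upstream windows of Dusp5 and Dusp1 are printed in the same way, and both hold the core of the cyclic AMP response element.
Dusp5, chr1:262543524-262543773 on GRCr8, plus strand: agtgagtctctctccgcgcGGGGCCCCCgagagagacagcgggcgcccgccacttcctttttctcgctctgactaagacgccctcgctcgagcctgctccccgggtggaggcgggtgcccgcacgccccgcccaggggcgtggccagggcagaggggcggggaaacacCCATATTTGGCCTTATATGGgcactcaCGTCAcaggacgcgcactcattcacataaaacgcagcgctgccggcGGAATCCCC
Dusp1, chr10:17184603-17184852 on GRCr8, plus strand: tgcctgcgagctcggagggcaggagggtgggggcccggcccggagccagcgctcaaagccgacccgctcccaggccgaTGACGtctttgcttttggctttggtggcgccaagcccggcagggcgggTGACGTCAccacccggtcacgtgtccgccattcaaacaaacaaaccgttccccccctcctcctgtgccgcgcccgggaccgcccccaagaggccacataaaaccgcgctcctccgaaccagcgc
The Dusp5 window had a pair of adjoining CArG boxes, 82 to 73 and 72 to 63 bases before the start site, with a core of the cyclic AMP response element at 55 to 51 and NF-kB matches at 231 to 223 and 9 to 1. The Dusp1 window had a full cyclic AMP response element 124 to 117 bases before the start site and a separate core at 172 to 168. These letters stand in the reference genome and carry no measurement of binding in the retina.

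Of the 10 genes, 9 had at least 1 window in the RefSeq table, with 11 windows in all, and Dusp4 had none. The full cyclic AMP response element was present in 1 of the 11 windows (Dusp1), beside 1.59% of all 33469 windows, and its core in 5 of 11, beside 18.2%. A CArG box was present in 1 of 11 (Dusp5), beside 1.5%, and an NF-kB match in 3 of 11 (Dusp2, Dusp5 and Dusp7), beside 7.31%. An AP-1 site and a TATA box were each present in 1 of 11, both times for Dusp14, which has 3 windows, beside 4.05% and 12.9%. No window held the glucocorticoid receptor motif, which 17.5% of all windows hold. Dusp6, Dusp8 and Dusp10 had no match at all, so the 3 genes that were higher in IR12 had no motif of the 7 in common. All 11 windows had a higher G and C content than the median window, from 52.8% to 84.4% beside 51.2%.

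**Figure D2:**
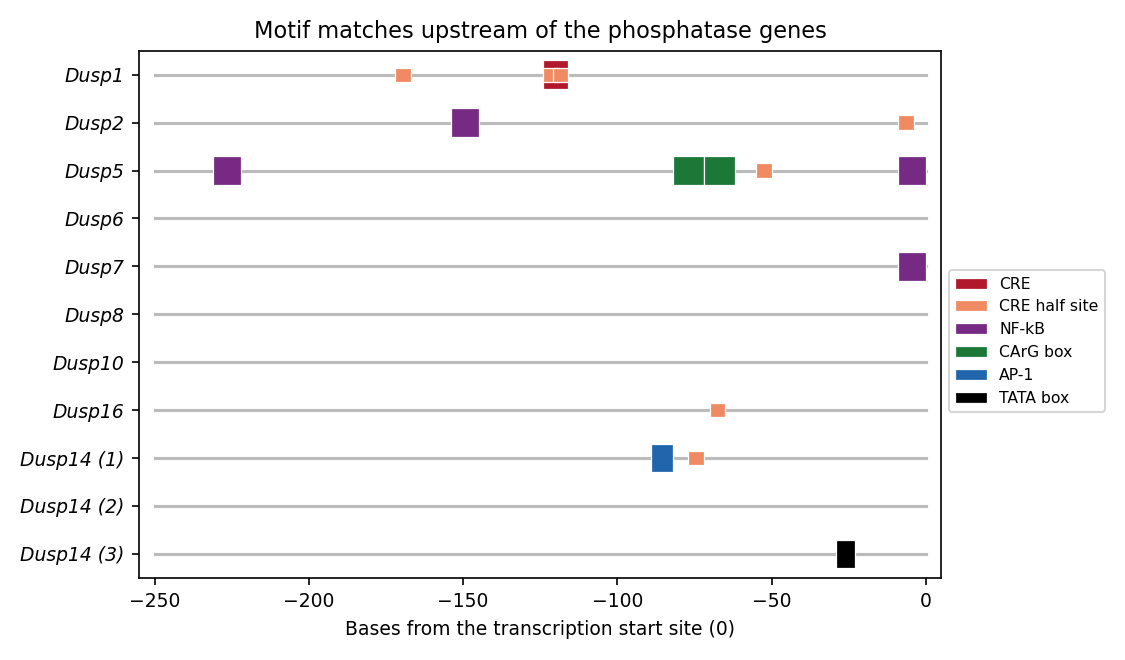
Positions of motif matches in the 250 bases upstream of 9 phosphatase genes, with the distance from the transcription start site in bases on the horizontal axis and 1 line per window (3 for Dusp14). Coloured blocks are matches on either strand, and the lines of Dusp6, Dusp8 and Dusp10 are empty.

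The phosphatases that prefer JNK and p38 passed neither 2-fold limit as deposited. Dusp10, which acts on p38 and JNK in nucleus and cytoplasm, had an FPKM of 6.67 in CTRL (5.44 to 8.09) and 11.1 in IR12 (9.82 to 12.4). Its log2 ratio was 0.65, short of 2-fold as deposited and past it, at 1.21, on the TPM scale. Dusp8, a neuron-rich member of the subgroup, had 9.67 in CTRL (8.18 to 11.4) and 10.5 in IR12 (9.26 to 11.8). Dusp16, a JNK phosphatase that shuttles between cytoplasm and nucleus, had an FPKM of 11.7 in CTRL (10.1 to 13.55) and 10.03 in IR12 (8.85 to 11.3). The intervals of Dusp8 and of Dusp16 overlapped between the libraries, and those of Dusp10 did not. The summed FPKM of the subgroup was 28.05 in CTRL and 31.6 in IR12. Dusp14, a small atypical phosphatase without the MAP kinase binding domain of the others, had 1.54 in CTRL (0.984 to 2.30) and 1.10 in IR12 (0.738 to 1.59), which overlap.

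The order of the levels differed between the libraries. By FPKM in CTRL it was Dusp1, Dusp4, Dusp16, Dusp8, Dusp7, Dusp10, Dusp5, Dusp6, Dusp14 and Dusp2. In IR12 it was Dusp6, Dusp1, Dusp7, Dusp5, Dusp10, Dusp8, Dusp16, Dusp4, Dusp14 and Dusp2. Dusp6 went from place 8 to place 1 and Dusp4 from place 2 to place 8. Of the 9 pairs of neighbours in each order, 6 had overlapping intervals in CTRL, every pair from Dusp4 down to Dusp6. In IR12 5 pairs overlapped, and Dusp6 stood clear of Dusp1 and Dusp4 stood clear of both its neighbours.

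Ratios between members of the same library do not depend on how the libraries are scaled to each other. The FPKM of Dusp6 was 0.175 times that of Dusp1 in CTRL and 2.22 times that of Dusp1 in IR12, a 12.7-fold difference between the libraries. Dusp5 had 0.293 times the FPKM of Dusp4 in CTRL and 2.2 times in IR12. In the injured retina, then, the ERK phosphatase of the cytoplasm exceeded the most abundant member of the control retina, and the nuclear ERK-specific member exceeded Dusp4. Within the JNK- and p38-selective subgroup the FPKM of Dusp10 over that of Dusp16 was 0.570 in CTRL and 1.10 in IR12.

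The summed FPKM of the 10 genes was 83.01 in CTRL and 122.8 in IR12. Without Dusp6 it was 79.1 and 86.0, so Dusp6 accounted for most of the difference between the sums as deposited (82.6%), and for 49.1% of it on the TPM scale. The nuclear inducible members made up 51.3% of the sum in CTRL and 30.9% in IR12, and the cytoplasmic ERK-selective pair 13.0% and 42.5%. The JNK- and p38-selective members held 33.8% and 25.7%. The family's transcript pool thus passed from mainly nuclear inducible members in CTRL to a largest share for the cytoplasmic ERK-selective pair in IR12.

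**Figure D3:**
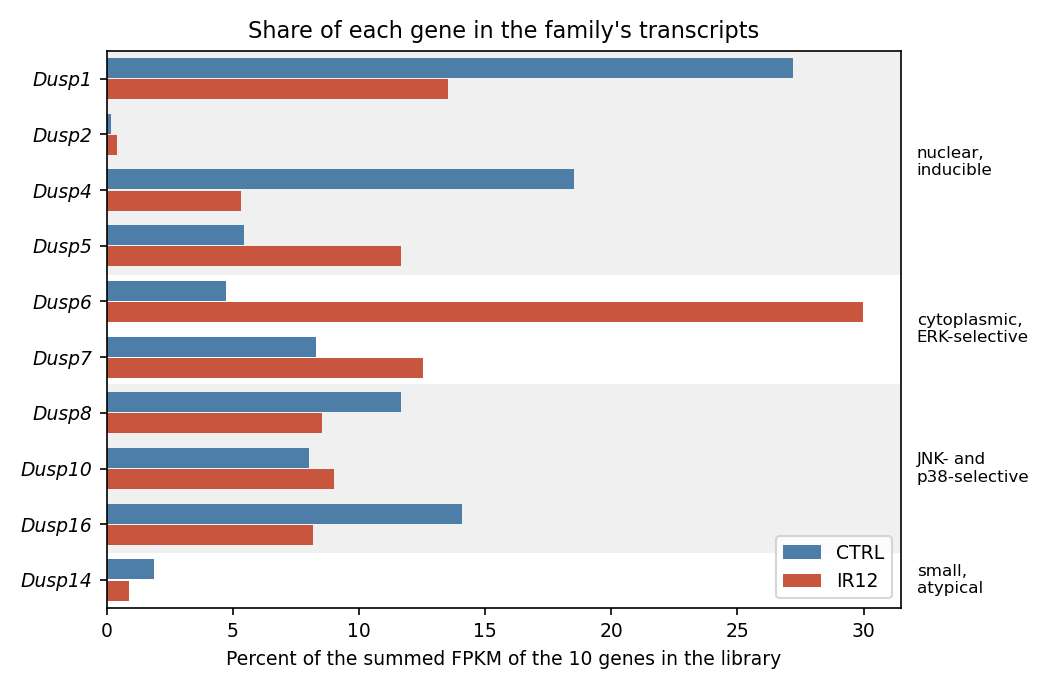
Percent of the summed FPKM of the 10 phosphatase genes taken by each gene within CTRL (blue bars) and IR12 (red bars). Dusp6 took 4.75% in CTRL and 30.0% in IR12, and Dusp1 27.2% and 13.5%.

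Scaling between the libraries sets the size of each log2 ratio. Summed over the table, FPKM came to 1402321 in CTRL against 895199.9 in IR12, of which small non-coding RNAs made up 67.8% and 46.0%. Rescaling to the same sum therefore moved the median of all 13599 genes from 0.02 to 0.59. Relative to that median, Dusp1 (0.19), Dusp4 (-0.53), Dusp14 (0.09) and Dusp16 (0.38) remained on the lower side on the TPM scale, although all but Dusp4 had a log2 ratio above 0. Dusp6 (3.47), Dusp5 (2.01) and Dusp7 (1.62) remained above it.

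**Figure D4:**
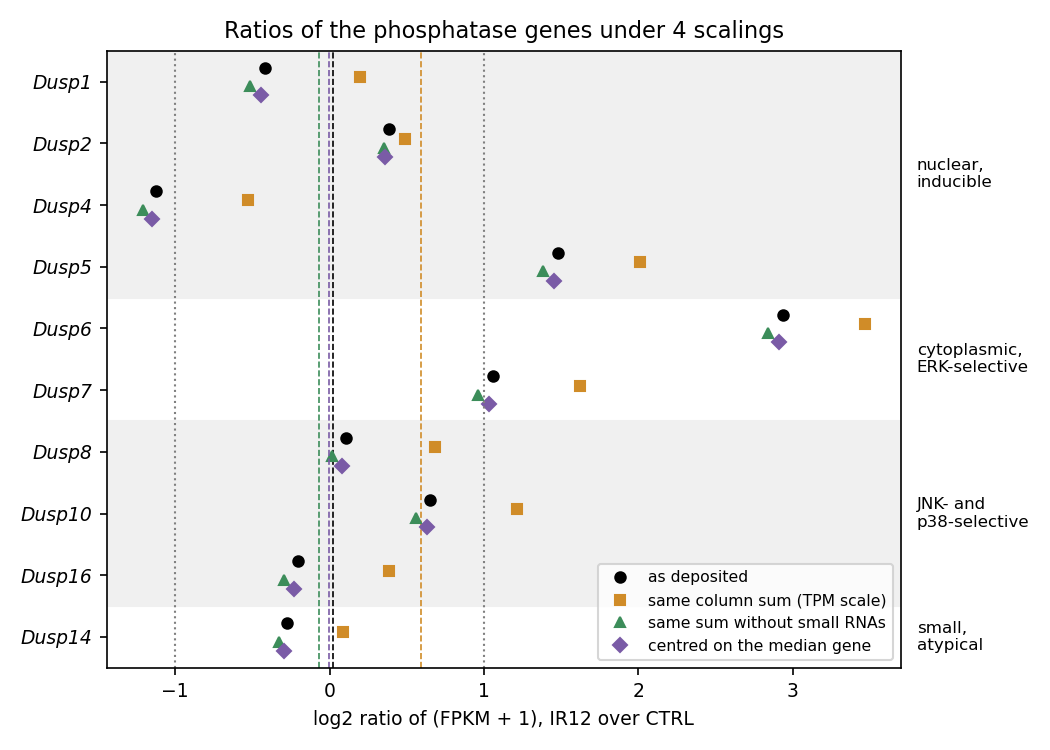
Log2 ratios of (FPKM + 1), IR12 over CTRL, for each phosphatase gene with FPKM as deposited and under 3 other scalings; dashed lines mark the median of all genes under the scaling of the same colour and dotted lines the 2-fold limits. Dusp6 and Dusp5 lie past the upper limit under each of them, and Dusp7 lies at 0.96 in the scaling without small non-coding RNAs.

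The other dual-specificity phosphatases are a mixed group that includes Dusp9, an ERK-selective MAP kinase phosphatase that was below FPKM 1 in both libraries, and Dusp3, which also acts on MAP kinases. Of 18 listed entries for the 16 symbols found, 10 had an FPKM of at least 1 and 0 of these were at least 2-fold higher or lower, with a median log2 ratio of 0.00. Styx, a catalytically inactive member, was the most abundant with an FPKM of 19.0 in CTRL against 19.6 in IR12. Dusp3 had an FPKM of 14.3 in CTRL against 16.7 in IR12. Dusp22, a regulator of JNK signalling, had 9.17 in CTRL and 4.45 in IR12 (log2 ratio -0.90, or -1.025 and past the 2-fold limit with a pseudocount of 0.1), and Dusp15 had 8.14 and 4.45 (-0.75). Dusp11, Dusp13 and Dusp21 were listed at 0 in both libraries, like the whole set of 37 mitochondrial genes, and a 0 in this table is no proof of silence. Of the tyrosine phosphatases that also act on MAP kinases, Ptprr was the most abundant, with an FPKM of 9.001 in CTRL against 6.82 in IR12.

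The kinases that these phosphatases act on differed little as a list. Among 12 MAP kinases with an FPKM of at least 1, 1 was at least 2-fold higher and 1 lower, with a median log2 ratio of -0.07. Mapk14, the main p38 kinase, had an FPKM of 35.4 in CTRL against 80.6 in IR12, and Mapk4, an atypical member, had 4.57 and 1.59. On the TPM scale the log2 ratio of Mapk4 was -0.62, short of the limit, and 0 of the 12 were lower. Mapk3, an ERK gene, had a similar FPKM in both libraries as deposited, with 24.8 in CTRL against 23.9 in IR12. The other p38 genes, Mapk11 (log2 ratio -0.38), Mapk12 (0.06) and Mapk13 (-0.08), passed neither limit.

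Upstream, 0 of 6 MAP kinase kinases passed either limit (median log2 ratio 0.11), and Map2k4, which activates JNK and p38, was the most abundant with an FPKM of 45.3 in CTRL against 78.0 in IR12. Among 19 MAP kinase kinase kinases, 3 were higher and 1 lower (median 0.21). Zak, a stress kinase upstream of JNK and p38, had an FPKM of 8.87 in CTRL against 22.2 in IR12, and Taok3 had 19.1 and 8.28. The others that were higher, Map3k6 and Map3k8, were below FPKM 1 in CTRL (0.235 and 0.314). Taok3 was short of the lower limit on the TPM scale, at a log2 ratio of -0.51, and 0 of the 19 were lower there. Taok1 was the most abundant, at 132 in CTRL and 122 in IR12. Scaffold genes passed neither limit in 8 of 8 cases (median 0.20), and their most abundant gene, Spag9, had 88.5 and 77.1.

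Among 11 kinases downstream of MAP kinases, 2 were higher and 0 lower (median log2 ratio 0.47). Rps6ka2, a ribosomal S6 kinase activated by ERK, had an FPKM of 12.0 in CTRL against 58.6 in IR12, and Mapkapk3, a kinase activated by p38, had 2.37 and 13.8. On the TPM scale 6 of the 11 were higher. Among 10 other feedback inhibitors of receptor tyrosine kinase and ERK signalling, 2 were higher and 0 lower (median -0.25). This median was above 0 on the TPM scale (0.27) and with FPKM of at least 5 (0.31), and with a pseudocount of 0.1 Il17rd was past the lower limit (-1.122). Spry2, a Sprouty protein that is also transcribed downstream of ERK, had 5.29 in CTRL and 23.6 in IR12, and Spred3 had 0.637 and 3.26. Nf1, a negative regulator of Ras, had the highest FPKM of this list in CTRL, at 66.4 against 48.7 in IR12, where Rasa1 was higher (51.2 and 64.4). Spred3 passed the filter through IR12 alone. The other 8 genes of the list had log2 ratios between -0.69 and 0.33.

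Among 12 transcripts known to follow ERK activity, 7 were at least 2-fold higher and 0 lower, with a median log2 ratio of 1.203. Only 9 of the 12 reached an FPKM of 1 in both libraries. Myc, Fosl1 and Epha2 passed the filter through IR12 alone, so nothing is drawn from this count or median. Ccnd1, which encodes cyclin D and had the highest FPKM of the list in IR12, had an FPKM of 3.90 in CTRL against 36.3 in IR12, close to the values of Dusp6 in both libraries. Myc, a growth-promoting transcription factor, had 0.0911 in CTRL and 7.79 in IR12, and Ier3 had 8.20 and 30.5. Fosl1, listed at 0 in CTRL, reached 33.4 in IR12. Fos (7.40 and 21.2), Epha2 (0.472 and 5.83) and Phlda1 (2.14 and 5.29) were also higher, the last at a log2 ratio of 1.003 that was 0.98 after centring on the median gene. The Ets factors of the list, which report ERK activity in many tissues, did not pass the limit, with FPKM in CTRL and IR12 of 11.0 and 6.65 for Etv1, 2.37 and 2.15 for Etv4, and 8.87 and 7.26 for Etv5. Egr1 (9.58 and 5.76, log2 ratio -0.65) and Epha4 (15.9 and 13.8, -0.19) did not pass it either. The list was therefore divided.

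**Figure D5:**
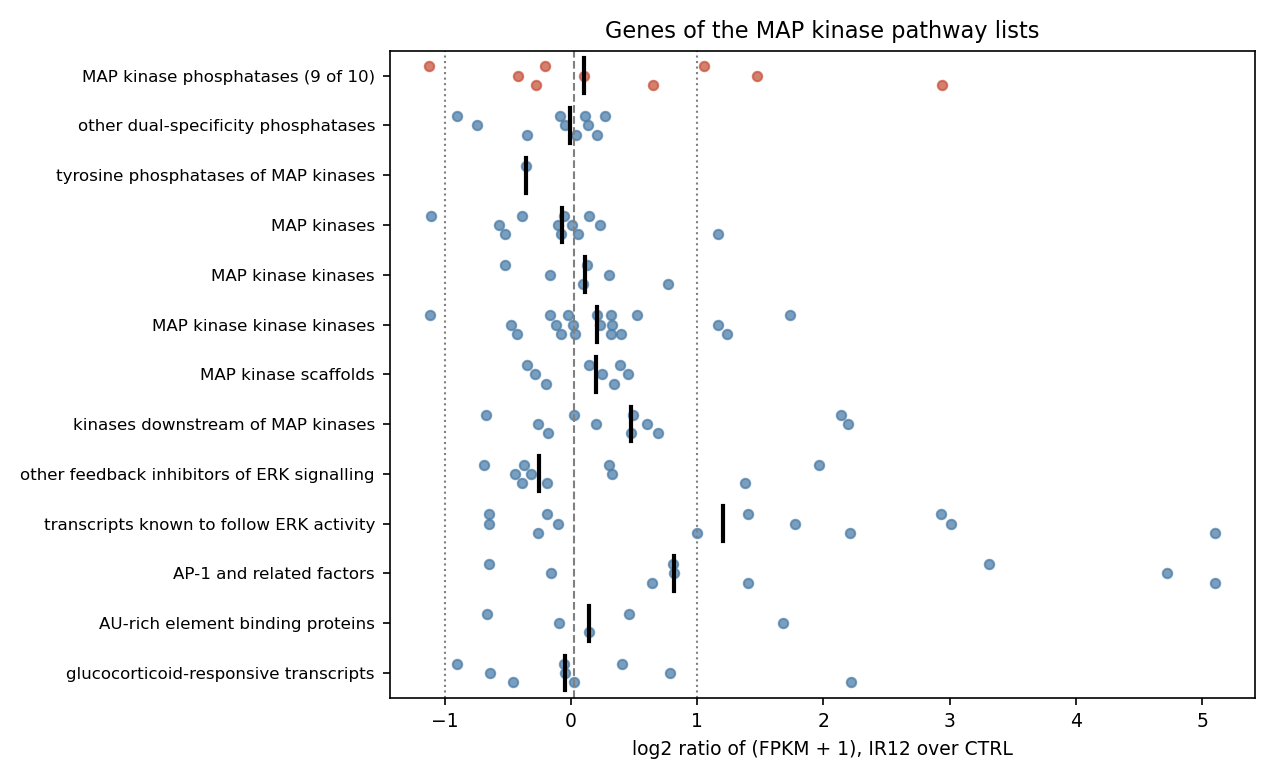
Log2 ratios of (FPKM + 1), IR12 over CTRL, for the genes of each list with an FPKM of at least 1, with 1 point per gene and the list median as a black bar; dotted lines mark the 2-fold limits and the dashed line the median of all genes. The transcripts known to follow ERK activity have a median of 1.203, which includes Myc, Fosl1 and Epha2, all below an FPKM of 1 in CTRL. The phosphatases spread from -1.12 to 2.94.

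Markers of cell types were read beside these results. The tissue label fits the rod markers, all 7 of which were present, with a summed FPKM of 15560 in CTRL against 18970 in IR12. All 6 Müller glia markers were at least 2-fold lower in IR12, with a summed FPKM of 1108 and 227.5, led by Glul (754 and 126), and 4 of them on the TPM scale. All 6 lens markers were at least 2-fold lower in IR12 under each scaling, with sums of 3367 and 399 and Cryba1 the most abundant (1614 and 196), so the CTRL library held more lens transcript. Of 10 markers of neutrophils, monocytes and macrophages, 7 had an FPKM of at least 1 and 6 were higher in IR12. Only 1 of the 7, Lyz2, reached an FPKM of 1 in both libraries. The others passed the filter through IR12 alone, so nothing is drawn from this count. The summed FPKM of all 10 markers was 11.6 in CTRL and 127.7 in IR12. Lyz2 led this list (9.73 and 76.9), S100a8 was at 0 in the CTRL column, and Mpo was at 0 in both.

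The 6 lymphocyte markers summed to 0.493 in CTRL and 0.7245 in IR12, and Cd79a was listed at 0 in both. Resident microglia markers passed neither limit (5 of 6 at an FPKM of at least 1, sums 54.1 and 45.9). In the astrocyte list Gfap, which reactive Müller glia also express, had an FPKM of 2.95 in CTRL against 21.9 in IR12, while S100b had 25.8 and 5.81 and Pax2 was listed at 0 in CTRL. With 1 library per condition, any gene higher in IR12 goes with every marker higher there, and likewise for lower genes. These markers therefore assign none of the phosphatases to a cell type. The medians of the cone, bipolar, amacrine, horizontal and ganglion cell lists lay between -0.84 and -0.33 as deposited and between -0.24 and 0.30 on the TPM scale. What part these cell types have in the phosphatase values was not tested.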

How the data were processed

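The authors deposited 1 table of gene FPKM on rn6, with 1 column each for CTRL and IR12. The submitters' processing notes name STAR 2.5.2b and Cuffdiff 2.2.0, and how Cuffdiff scaled the libraries to each other is not given in the sources used here. Locus starts, which begin at 0 in the table, are printed 1 higher. FPKM was used as deposited, with a pseudocount of 1. Genes needed an FPKM of at least 1 in at least 1 library, and 2-fold was the limit. The members and lists were chosen with earlier results of these data known. Named were the members, some of the other Dusp genes, the gene of each pathway list with the highest FPKM in either library, and pathway list genes at least 2-fold different with an FPKM above 5 in either library. Mapk3, Mapk4, the other p38 genes, Map3k6, Map3k8, Spred3, Il17rd, Rasa1, Elavl1, Egr1, Epha4, the Etv genes and all marker genes printed were named after their values were seen. Many marker genes past the limit are not named, and for some lists the gene with the highest FPKM is not reported here. Reads per FPKM came from the lowest repeated FPKM at 29 (CTRL) and 45 (IR12) locus lengths of 300 to 1500 bases, with an effective length 199 bases shorter than the locus. At each of these lengths the value lay within 5% of a whole multiple. The alternatives were a pseudocount of 0.1, a common column sum with and without small non-coding RNAs, centring on the median gene, other filters on low values, and limits of 1.5-fold and 3-fold. The estimate of reads per FPKM and the 2-fold calls were tested on simulated data. That simulation was built with steps of 1 read and the same effective length, so it cannot bear on whether the smallest step is 1 read. Protein sequences were not used here. Tables were handled with pandas 2.3.3 and numpy 2.4.6 under Python 3.11.15, intervals came from scipy 1.17.1, and figures were drawn with matplotlib 3.10.9.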

Additional observations from a re-analysis of the deposited data

How the results depend on the processing

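With 1 library per condition, no replicate could be left out, and the intervals given cover counting error alone. No paired analysis was possible because neither group has a second library. Among 169 values recomputed for 29 results, 151 stayed within 1.5-fold of the value reported and 0 of the called values changed sign. Among the 131 that are log2 ratios, 11 had the opposite sign to the value reported, 8 of them on the TPM scale, with Dusp1, Dusp14 and Dusp16 among them. The phosphatases at least 2-fold higher numbered 3 with a pseudocount of 0.1, centring and each filter on low values, 4 on the TPM scale (with Dusp10) and 2 with a common sum without small non-coding RNAs (Dusp5 and Dusp6). A 3-fold limit left 1 higher (Dusp6) and 0 lower, and on the TPM scale 0 were lower in place of 1. Over all genes, the TPM scale gave 2817 higher and 436 lower in place of 892 and 832, a 1.5-fold limit 2007 and 1861, and a 3-fold limit 402 and 408. The fold limits move these counts by construction. The cause of the larger small RNA share in CTRL, which drives the TPM scale, was not tested. The median log2 ratio of the phosphatases was between 0.01 and 0.68 under all alternatives. Dusp6 kept a log2 ratio between 2.84 and 3.47. Dusp2, with a log2 ratio of 0.38, had 1.29 with a pseudocount of 0.1. Each member has 1 entry, so summing the entries of a symbol changed no place in the order.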

Other observations

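Further lists touch on what is known of these genes. The transcripts of Dusp1 and Dusp6 carry AU-rich elements, which recruit proteins that speed decay or stabilise the mRNA, and of 5 genes for such proteins with an FPKM of at least 1, 1 was at least 2-fold higher and 0 lower. Zfp36, which speeds the decay of such transcripts, had an FPKM of 1.23 in CTRL against 6.14 in IR12, while Hnrnpd, the highest of them in CTRL, had 74.7 and 69.8 and Elavl1, the highest in IR12, had 53.5 and 74.1. Dusp1 is also a classic glucocorticoid-responsive gene. Among 9 entries of glucocorticoid-responsive genes, 1 was higher and 0 lower, with a median log2 ratio of -0.05 that became 0.58 on the TPM scale, where the median of all genes was 0.59. Sgk1, the most abundant, had an FPKM of 88.6 in CTRL against 85.7 in IR12. Cebpd, which passed the filter through IR12 alone, had 0.832 and 7.55.

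Among AP-1 and related immediate early factors, 4 of 9 genes with an FPKM of at least 1 were at least 2-fold higher and 0 lower, with a median log2 ratio of 0.82. On the TPM scale 7 of the 9 were higher, with a median of 1.388. Fosl1 and Junb were below an FPKM of 1 in CTRL and passed the filter through IR12 alone, so nothing is drawn from these counts. Atf3, a stress-induced factor, had an FPKM of 2.62 in CTRL against 94.5 in IR12, and Junb had 0.780 and 16.7. Fos and Fosl1 belong to this list too, as does Egr1, which had 9.58 and 5.76. Dusp1, often grouped with such immediate early genes, had 22.6 and 16.6.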
